A study of Mus musculus with 12 samples.

Results

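Cdx2, a trophectoderm regulator at low level in embryonic stem cells, went from 14 counts over both untreated libraries to 124 over both libraries at 100 nM dTAG13, and of the other 9 regulators measured beside it 1 passed the test as higher at that dose (Tfap2c) and 2 as lower (Cdx1 and Gata3). Passing meant an adjusted p under 0.05 and over 1.5-fold, which 3.37% of all genes tested did as higher and 4.62% as lower. The remaining 6 are Cdx4, Eomes, Elf5, Hand1, Gata2 and Tfap2a. The 10 genes were taken by symbol from the 24421 genes of the counts table, to ask whether the rise of Cdx2 came with other trophectoderm genes or stood alone. The list was chosen by the measured rise of Cdx2 from 0 to 100 nM, so its difference from 0 nM and its order over the doses are described with no test.

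The cells were mouse embryonic stem (mES) cells of the strain labelled B6 (C57BL/6J in the study's methods), grown in 2i+LIF, which carried the Brg1 dTag knock in, a degron on the gene of the chromatin remodeler BRG1, in all 6 conditions. By the study's methods, colonies grown from single cells were picked, and whether all conditions share 1 clone is not stated. dTAG13, the molecule that hands the tagged protein to the proteasome, was given for 24 h at 0.3, 1, 3, 10 or 100 nM, and the control cells (0 nM) received none, which by the study's methods means the solvent DMSO. RNA-seq was made of total RNA in 2 libraries per condition, 12 in all, for which the labels do not name separate cultures and the study's legends speak of 2 independent experiments. The p-values rest on the spread between these libraries. In the comparisons of conditions that spread was estimated over all genes together, so a gene whose own 2 libraries differ widely gets no wider spread.

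The trophectoderm is the outer layer of the blastocyst and gives rise to the placenta, whereas embryonic stem cells are derived from the inner cell mass. CDX2, a homeodomain factor, and GATA3 act downstream of TEAD4 and its coactivator YAP in the early trophectoderm, and EOMES, ELF5 and TFAP2C work with CDX2 in trophoblast stem cells. In embryonic stem cells CDX2 and the pluripotency factor OCT4 restrain each other. CDX1, CDX2 and CDX4 also form the caudal family of the later embryo, where WNT signalling drives them in the primitive streak and the tail bud. Medium of the 2i type holds CHIR99021, which activates the WNT pathway, and PD0325901, which blocks MEK.

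The promoters of Cdx2, of its relative Cdx4 and of Gata3 are shown because the first and the last moved in opposite directions and Cdx4 is the family member nearest to the detection limit. They are the 250 bases before the RefSeq start (GRCm38.p6), written 5′ to 3′ on the strand of the gene, and the capitals mark the octamer bound by OCT4, ATGCAAAT. The windows are chr5:147307250-147307499 on the minus strand for Cdx2, chrX:103321148-103321397 on the plus strand for Cdx4 and chr2:9878601-9878850 on the minus strand for Gata3.
Cdx2: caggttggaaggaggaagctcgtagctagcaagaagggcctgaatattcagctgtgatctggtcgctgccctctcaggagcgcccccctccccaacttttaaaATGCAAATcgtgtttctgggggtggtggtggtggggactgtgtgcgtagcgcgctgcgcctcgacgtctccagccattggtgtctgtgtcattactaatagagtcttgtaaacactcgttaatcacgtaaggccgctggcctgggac
Cdx4: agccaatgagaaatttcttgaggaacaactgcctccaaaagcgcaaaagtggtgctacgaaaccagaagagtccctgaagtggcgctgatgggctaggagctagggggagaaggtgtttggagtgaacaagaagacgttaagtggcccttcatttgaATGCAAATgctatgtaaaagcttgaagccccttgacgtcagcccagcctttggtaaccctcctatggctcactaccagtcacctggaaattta
Gata3: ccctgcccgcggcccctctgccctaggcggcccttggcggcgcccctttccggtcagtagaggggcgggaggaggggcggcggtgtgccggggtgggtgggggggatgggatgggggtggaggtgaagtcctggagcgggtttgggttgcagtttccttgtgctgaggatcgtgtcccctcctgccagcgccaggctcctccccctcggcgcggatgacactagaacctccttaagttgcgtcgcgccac
RefSeq promoters were matched for 7 of the 10 genes, and not for Cdx1, Hand1 and Tfap2c. Of the matched genes, Cdx2 and Cdx4 held the octamer or its reverse complement in this window, which was true of 1.6% of the 32851 promoter windows of the table. The octamer was chosen as a motif after these sequences were seen. A TCF/LEF core (CTTTGA, on either strand) stood in 1 window of Elf5 and in 13.8% of all windows. A TEAD core (GGAATG) stood in 1 window each of Elf5 and Gata2 and in 12.6% of all, and TATAAA in none of the members' windows and in 12.4% of all. The Cdx2 window held 13 CG dinucleotides and a GC content of 55.2%, that of Gata3 19 and 70%, and that of Cdx4 5 and 48.4%, against a median of 6 CG dinucleotides over all windows. No 2 matches overlapped, and a match of letters is no measure of binding.

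Total counts ran from 4663484 to 6375582 per library, of which the ribosomal transcript Rn45s took between 10.5% and 19.4%. Smarca4, the gene of BRG1, had 2128 to 2777 counts in every library. The degron acts on the protein, so this transcript does not check the treatment. Levels are given as RPKM, the read pairs scaled to exon length and to the normalised library size, so that genes of unequal length can be compared. On this scale Cdx1 was the most abundant regulator, with a mean of 22.9 RPKM over the 12 libraries, followed by Eomes with 11.8 and Tfap2c with 4.24. Cdx2 (1.56), Tfap2a (1.48), Gata3 (1.11) and Gata2 (1.01) lay near 1 RPKM, and Cdx4 (0.436), Elf5 (0.0617) and Hand1 (0.0613) below it. Thus 7 of the 10 genes reached a mean of 1 RPKM, the level under which the study set genes aside. In bulk RNA, more cells that express a gene and more RNA per cell cannot be told apart.

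Cdx2 (chromosome 5 of mm10, 147300900 to 147307249) had 10 and 4 counts in the libraries without dTAG13, 10 and 9 with 0.3 nM, 18 and 7 with 1 nM, and 7 and 12 with 3 nM. It then had 19 and 23 counts with 10 nM and 64 and 60 with 100 nM. The conditions up to 3 nM overlapped one another, both libraries at 10 nM lay above all of them (by 1 count at the nearest), and both libraries at 100 nM lay above those at 10 nM. In RPKM the level was 0.559 ± 0.355 (SD, n = 2) in the control, 0.792 ± 0.0621 with 0.3 nM, 0.987 ± 0.624 with 1 nM, 0.816 ± 0.236 with 3 nM, 1.63 ± 0.278 with 10 nM and 4.55 ± 0.267 with 100 nM. In order of level the conditions ran 0, 0.3, 3, 1, 10 and 100 nM, and of these neighbours the first 4 could not be separated. In RPKM the last step of the series, from 10 to 100 nM, was the largest, with a ratio of 2.80.

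The ratio of Cdx2 to its level at 0 nM was 2.95 at 10 nM and 8.24 at 100 nM. On the ratio scale the whole change from 0 to 10 nM was thus no smaller than the single step from 10 to 100 nM (2.80). The fitted log2 fold change at 100 nM was 3.02 (standard error 0.38). Because it rests on 10 and 4 counts at 0 nM, it moved to 3.84 without replicate 1 of the control and to 2.49 without replicate 2. At 0.3, 1, 3 and 10 nM the fitted values were 0.51, 0.82, 0.57 and 1.54 on the log2 scale. Without replicate 1 of 1 nM, the value at 1 nM was -0.00, and without replicate 1 of the control the values at 3 and 10 nM were 1.41 and 2.37.

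**Figure D1:**
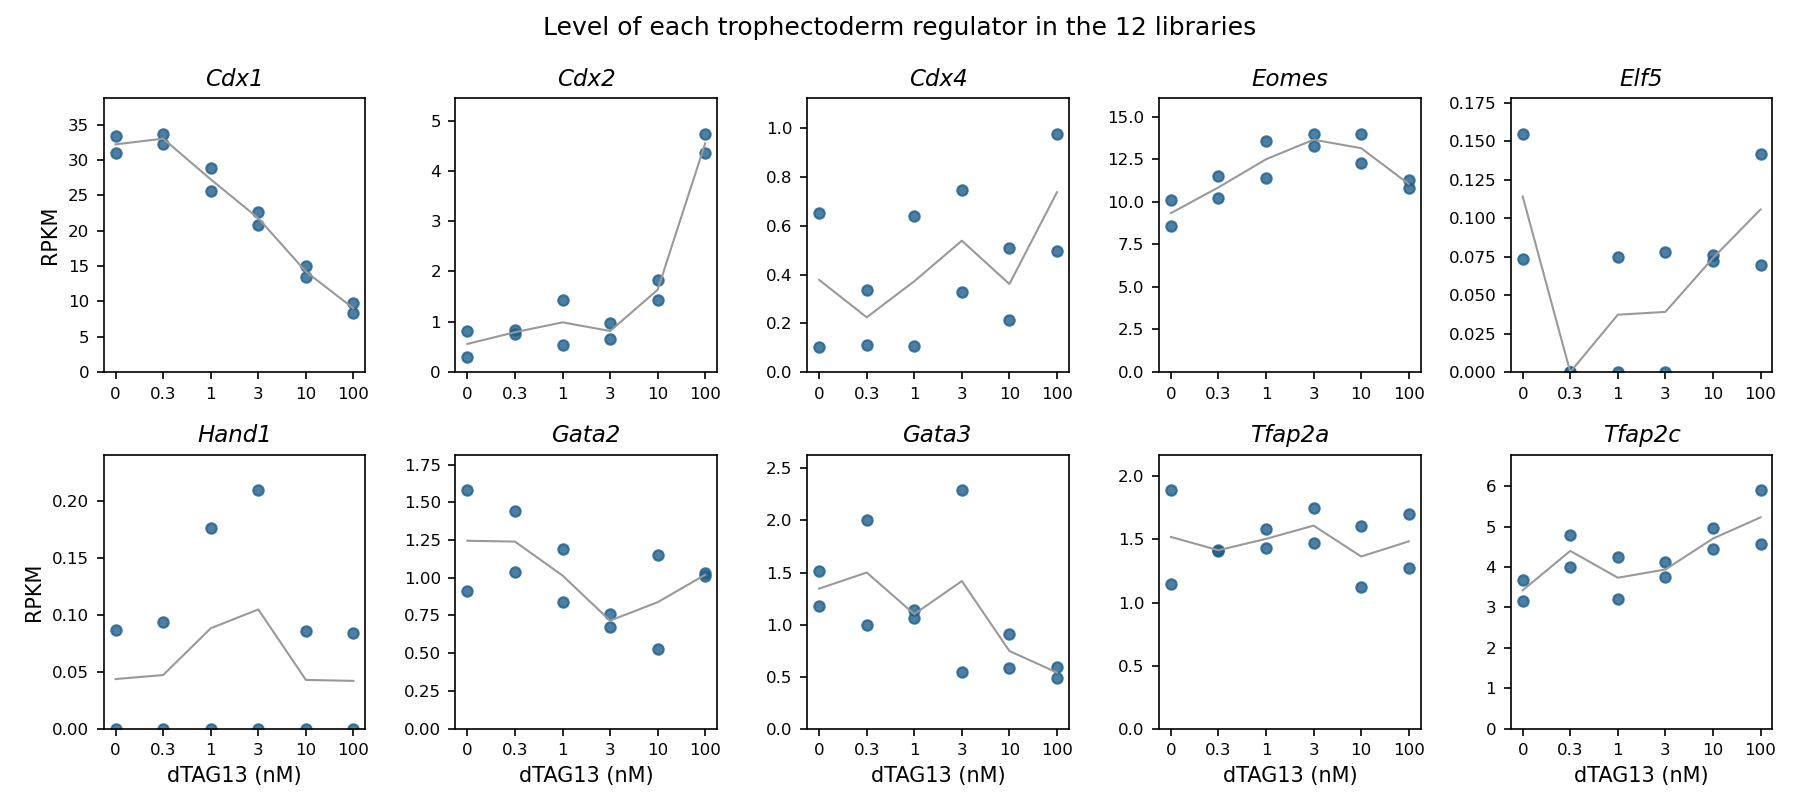
RPKM (vertical axis, from 0, a separate scale in each panel) of the 10 regulators against the dTAG13 dose in nM (equally spaced), with 1 point per library and a line through the mean of the 2 libraries. Cdx2 stands at 4.36 and 4.74 RPKM at 100 nM and at or below 1.83 in every other library, Cdx1 falls over the doses, and Elf5 and Hand1 lie at or near 0 throughout.

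Cdx1, the paralogue of Cdx2 and the most abundant of the 10 genes, moved the other way. It had 312 and 354 counts without dTAG13, 329 and 317 with 0.3 nM, 297 and 268 with 1 nM, 200 and 207 with 3 nM, 162 and 138 with 10 nM, and 107 and 93 with 100 nM. From 1 nM on, both libraries of each dose lay below both libraries of the dose before. The level went from 32.2 ± 1.69 RPKM (SD, n = 2) at 0 nM through 21.7 ± 1.37 at 3 nM to 9.0 ± 1.01 at 100 nM. The log2 fold change against 0 nM was 0.04 at 0.3 nM and -0.24 at 1 nM (adjusted p = 1.00 and 0.521, quasi-likelihood test of edgeR, Benjamini-Hochberg adjusted over 23204 genes). It was -0.57 at 3 nM (adjusted p = 0.00019, same test), which did not reach 1.5-fold, though it did without replicate 1 of the control (-0.61) and without replicate 1 of 3 nM (-0.60). It was -1.18 ± 0.13 with 10 nM (SE, adjusted p = 3.5e-18, same test) and -1.84 ± 0.14 with 100 nM (SE, adjusted p = 1.3e-39). The fall at 100 nM ranged from -1.95 to -1.71 over 22 alternative settings and passed the test in all of them.

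Cdx4 (chromosome X, 103321398 to 103330224), the third caudal gene, stayed close to the detection limit. It had 6 and 1 counts without dTAG13, 3 and 1 with 0.3 nM, 6 and 1 with 1 nM, 6 and 3 with 3 nM, 5 and 2 with 10 nM, and 5 and 10 with 100 nM. Every pair of neighbouring conditions overlapped. The ratio of 100 to 0 nM was 1.99 with an exact 95% counting interval of 0.765 to 5.78 (counting error only, as for all such intervals here), which includes 1, so a change was not detectable at this depth. The log2 fold change of Cdx4 was 0.96 (standard error 0.84, adjusted p = 0.526, edgeR's quasi-likelihood test).

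The summed level of the 3 caudal genes fell with dose, from 32.4 and 33.8 RPKM in the libraries at 0 nM to 16.9 and 15.5 at 10 nM and 15 and 13.6 at 100 nM. Their makeup shifted more than their sum. Cdx2 gave 2.50% and 0.911% of the sum without dTAG13, 8.47% and 11.8% with 10 nM, and 31.7% and 32.0% with 100 nM. Cdx1 exceeded Cdx2 38.2-fold and 108-fold in RPKM at 0 nM, and 2.05-fold and 1.90-fold at 100 nM. Cdx1 thus remained the more abundant caudal transcript in each of the 12 libraries. Since the choice of Cdx2 used its values at 0 and 100 nM, these shares are a description.

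**Figure D2:**
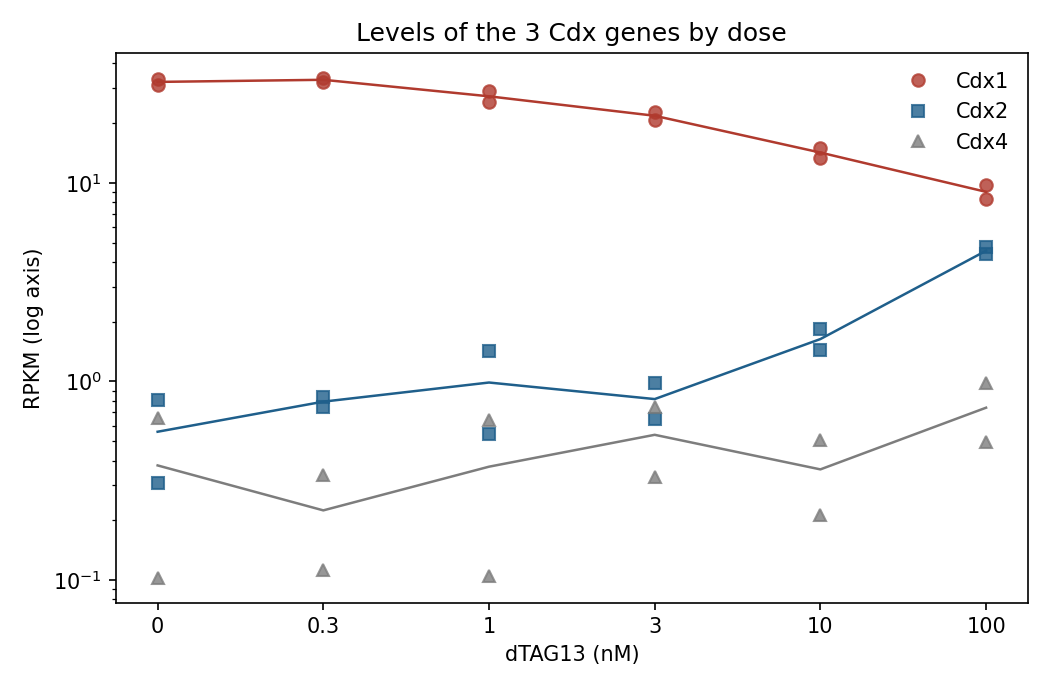
RPKM on a logarithmic axis of Cdx1 (circles), Cdx2 (squares) and Cdx4 (triangles) against the dTAG13 dose in nM (equally spaced), 1 symbol per library and a line through each condition's mean. Cdx1 falls from a mean of 32.2 to 9.0 RPKM and Cdx2 goes from 0.559 to 4.55, while the symbols of Cdx4 overlap between all neighbouring doses.

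Eomes, a T-box factor of trophoblast stem cells and also of the primitive streak, was modestly higher at the middle doses. It lies on chromosome 9 from 118478189 to 118486132. It had 216 and 193 counts without dTAG13, 239 and 212 with 0.3 nM, 249 and 302 with 1 nM, 249 and 296 with 3 nM, 283 and 305 with 10 nM, and 265 and 258 with 100 nM. Both libraries of each dose lay above both at 0 nM in RPKM, and the level peaked at 13.7 ± 0.475 RPKM (SD, n = 2) at 3 nM against 9.33 ± 1.08 at 0 nM and 11.1 ± 0.355 at 100 nM. Both libraries at 100 nM lay below those at 1, 3 and 10 nM.

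The log2 fold change of Eomes was 0.42 at 1 nM (adjusted p = 0.0413), 0.55 at 3 nM (adjusted p = 0.00038) and 0.50 at 10 nM (adjusted p = 0.00097), all by edgeR's quasi-likelihood test. None of these reached 1.5-fold. With another scaling of the libraries the value at 3 nM did, at 0.59 with DESeq2 size factors, 0.61 with upper quartile factors and 0.64 with none. It also did without replicate 1 of the control (0.68), of 1 nM (0.59), of 3 nM (0.62) or of 100 nM (0.59). The adjusted p of Eomes did not pass without replicate 2 of the control, at 0.625 for 1 nM, 0.0536 for 3 nM and 0.102 for 10 nM. At 10 nM it was also lost without replicate 2 of that dose (0.40, adjusted p = 0.0609). At 1 nM it reached 0.774 without replicate 2 of that dose (0.29) and 0.248 with DESeq2's Wald test. At 100 nM the value was 0.25 (standard error 0.12, adjusted p = 0.183, same test), with a 95% interval from 0.01 to 0.49. At 0.3 nM it was 0.22 (adjusted p = 0.942). The dose with the highest Cdx2 was thus not among the doses at which Eomes passed the adjusted test.

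TFAP2C and TFAP2A are AP-2 factors, of which TFAP2C maintains the trophectoderm and trophoblast stem cells and is also made by embryonic stem cells. Tfap2c (chromosome 2, 172549593 to 172558621) had 65 and 59 counts without dTAG13, 82 and 69 with 0.3 nM, 58 and 78 with 1 nM, 58 and 72 with 3 nM, 94 and 80 with 10 nM, and 88 and 116 with 100 nM. In RPKM both libraries at 0.3, 3, 10 and 100 nM lay above both at 0 nM, those at 1 nM did not, and every pair of neighbouring levels overlapped. The level was 3.43 ± 0.360 RPKM (SD, n = 2) in the control and 5.23 ± 0.947 with 100 nM. Tfap2c rose at 100 nM with a log2 change of 0.61 ± 0.20 (SE, adjusted p = 0.0175, edgeR's quasi-likelihood test), a fold of 1.53. The call was lost without replicate 2 of the control (0.52, adjusted p = 0.205), without replicate 2 of 100 nM (0.41, adjusted p = 0.370), and with DESeq2's Wald test (adjusted p = 0.112) or a fit of both conditions alone (adjusted p = 0.114). Over all settings its adjusted p ran from 0.00321 to 0.370. At 10 nM the value was 0.46 (adjusted p = 0.161).

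Tfap2a (chromosome 13, 40715303 to 40734920) had between 26 counts, in replicate 1 of the control, and 45, in its replicate 2. The counts of all other libraries fell between those of the 2 controls. Its mean level stayed between 1.36 and 1.61 RPKM over the 6 conditions, and the log2 fold change at 100 nM was -0.04 with a 95% interval from -0.59 to 0.51 (adjusted p = 0.983, edgeR's quasi-likelihood test). In the authors' annotation Tfap2a overlaps Gm26688, an antisense gene at 40727808 to 40735162, and the strand was not used in counting, so reads of the pair cannot be told apart. Gm26688 itself had at most 4 counts in a library. GENCODE M21 also places the antisense genes Gm47067 and Gm47061 over Tfap2a, with 73 and 265 shared exon bases, Gm33460 over Eomes, with 118, and Gm13256 over Gata3, with 155. On the strand of Gata3 it places 9230102O04Rik, with 77 shared exon bases, which had at most 1 count in a library, and across from it 4930412O13Rik, with no shared exon base and at most 3 counts.

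Gata3, a zinc-finger factor that can start the trophoblast programme on its own, was lower where Cdx2 was highest. It lies on chromosome 2 from 9857078 to 9878600. It had 28 and 23 counts without dTAG13, 18 and 36 with 0.3 nM, 20 and 22 with 1 nM, 37 and 10 with 3 nM, 18 and 11 with 10 nM, and 12 and 10 with 100 nM. In RPKM both libraries at 1, 10 and 100 nM lay below both at 0 nM, while the libraries at 3 nM were the highest and the second lowest of the 12. The level was 1.35 ± 0.236 RPKM (SD, n = 2) in the control and 0.539 ± 0.0763 with 100 nM, a ratio of 0.401 with an exact 95% counting interval of 0.232 to 0.674. Gata3 fell at 100 nM with a log2 change of -1.31 ± 0.40 (SE, adjusted p = 0.0114, edgeR's quasi-likelihood test). That call was lost without replicate 1 of the control (-1.12, adjusted p = 0.146), without replicate 2 of 100 nM (-1.17, adjusted p = 0.126), with DESeq2's Wald test (-1.27, adjusted p = 0.215), with a filter on low counts or RPKM (adjusted p = 0.0782 and 0.0919) and in a fit of both conditions alone (adjusted p = 0.0650). Its sign held in all 22 settings.

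Gata2, the related factor that acts with GATA3 in trophoblast, lies on chromosome 6 from 88198664 to 88207032. It had 17 and 31 counts without dTAG13, 26 and 19 with 0.3 nM, 16 and 23 with 1 nM, 11 and 14 with 3 nM, 23 and 10 with 10 nM, and 21 and 21 with 100 nM. Only at 3 nM did both libraries lie below both at 0 nM. The log2 change was -0.79 ± 0.40 at 3 nM (SE, adjusted p = 0.343, edgeR's quasi-likelihood test) and -0.29 at 100 nM (adjusted p = 0.656), with a 95% interval from -1.0 to 0.42 at 100 nM. A rise of 1.5-fold or more in Gata2 at 100 nM lay outside this interval. The value itself ran from -0.63 to 0.17 when 1 library was left out, which the interval does not count, so such a rise is not excluded.

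Elf5, an ETS factor that locks in the trophoblast stem cell fate and is held methylated in embryonic stem cells, was not detectable above the floor. It had 10 counts in the 12 libraries together, never more than 2 in a library, and 0 in 4 of them. Its counts were 2 and 1 at 0 nM and 2 and 1 at 100 nM. Hand1, a basic helix-loop-helix factor of trophoblast giant cells and of extraembryonic mesoderm, had 8 counts in all, never more than 2 in a library, and 0 in 6. Its counts were 0 and 1 at 0 nM and 1 and 0 at 100 nM. Both genes stayed at or under 3 counts over the 2 libraries of each condition, so no fold is given. Elf5 lies on chromosome 2 from 103412098 to 103450988 and Hand1 on chromosome 11 from 57828713 to 57832147.

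Counted together, the 9 regulators other than Cdx2 did not move as a group. A gene was counted at an adjusted p under 0.05 with a change over 1.5-fold. At 100 nM, Tfap2c was higher (1 of 9) and Cdx1 and Gata3 were lower (2 of 9), where 3.37% of all 23204 genes were higher and 4.62% lower. The median log2 fold change of the 9 genes was -0.08, against 0.09 over all genes. That median fell on the fitted value of Hand1 (standard error 2.3) and also includes Elf5. Both genes lay at or under the floor of 3 counts, so the median says little. Without normalization factors the median over all genes was 0.21, and 1005 genes were called higher and 757 lower in place of 782 and 1072. At 10 nM, 0 of 9 were higher and Cdx1 was lower (1 of 9), against 1.70% and 3.14% of all genes. At 3 nM and at 1 nM 0 were higher and 0 lower, where the shares of all genes were 0.750% and 1.72% for 3 nM, and 0.138% and 0.474% for 1 nM. At 0.3 nM the counts were again 0 and 0, against 0.00431% and 0.0388% of all genes. At an unadjusted p under 0.05 in edgeR's test, 0 and 0 were higher and lower at 0.3 nM, 1 and 1 with 1 nM, 1 and 2 with 3 nM, 2 and 2 with 10 nM, and 2 and 2 with 100 nM. That threshold has no minimum of fold. The share of all genes at it was not computed, so these counts have no background here. With DESeq2's Wald test Eomes was higher at 3 nM (log2 0.59), 0 of 9 were called at 0.3 and at 1 nM, and Cdx1 was the 1 called at 10 nM. That test called 93 genes higher and 176 lower of 23204 at 3 nM, and 208 and 427 at 10 nM. All these comparisons share the same 2 control libraries.

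By the plain separation of libraries, Eomes and Tfap2c lay wholly above the control at 100 nM and Cdx1 and Gata3 wholly below it. The same separation held for 27.8% of all genes above and 23.4% below, so with 2 libraries against 2 it was common.

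**Figure D3:**
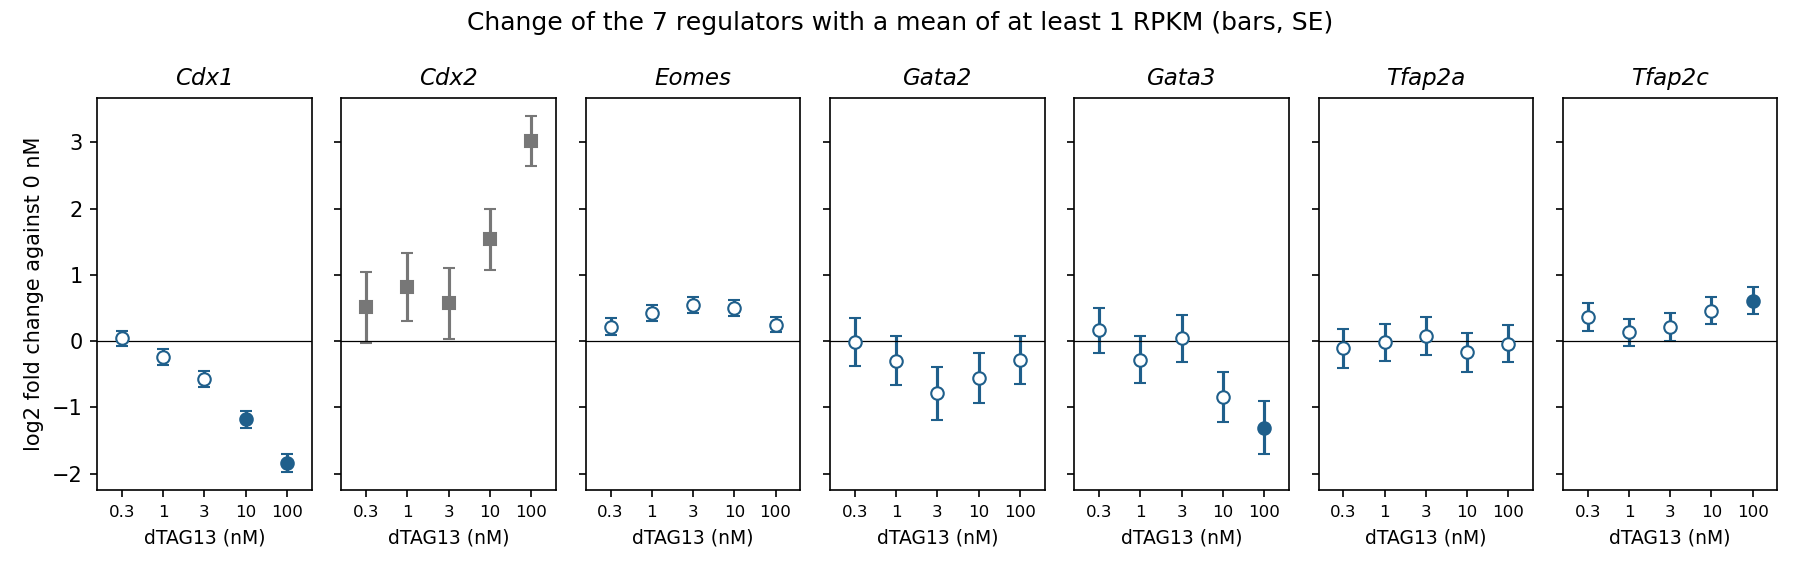
Log2 fold change against 0 nM (vertical axis, shared) with its standard error (bars), from the fit of all 12 libraries, for the 7 regulators that averaged 1 RPKM or more, against the dTAG13 dose in nM. Filled circles passed an adjusted p of 0.05 with over 1.5-fold, open circles did not, and grey squares (Cdx2) were not tested. Cdx2 reaches 3.02, Cdx1 -1.84, Gata3 -1.31 and Tfap2c 0.61 at 100 nM, while Eomes peaks at 0.55 at 3 nM.

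Comparisons that leave out 0 and 100 nM allowed Cdx2 to be tested with the others. The sample numbers that end the library names in the labels run on through 0, 1, 10 and 100 nM and are used again for 0.3 and 3 nM, and no batch is named. The comparisons of 1, 10 and 100 nM with the control and the 2 that follow stayed within such a set of numbers, and those of 0.3 and 3 nM with the control did not. Between 0.3 and 3 nM, Cdx2 went from 10 and 9 to 7 and 12 counts, a log2 fold change of 0.06 with a 95% interval from -0.93 to 1.05 (adjusted p = 1.00, edgeR's quasi-likelihood test). Between 1 and 10 nM it went from 18 and 7 to 19 and 23 counts, with no overlap between them, as for 20.0% of all genes (17.8% lay wholly lower). The log2 change was 0.72 (standard error 0.41, 95% interval -0.08 to 1.52, adjusted p = 0.477). A rise of Cdx2 before 100 nM was thus not established in the libraries that its choice did not use.

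Cdx1 was the member that passed in both of these comparisons. It fell by 0.60 on the log2 scale from 0.3 to 3 nM (329 and 317 to 200 and 207 counts, adjusted p = 0.0001) and by 0.94 from 1 to 10 nM (297 and 268 to 162 and 138 counts, adjusted p = 1.2e-10), both by edgeR's quasi-likelihood test. This made 1 of 10 regulators lower and 0 higher in each, where 0.965% of all genes were lower and 0.414% higher from 0.3 to 3 nM, and 1.09% and 0.552% from 1 to 10 nM. At an unadjusted p under 0.05, 1 regulator was higher from 0.3 to 3 nM and 0 from 1 to 10 nM, with no share of all genes computed at that threshold. DESeq2's Wald test called 0 higher in both, where 39 of 23204 genes were higher in each. The fall of Cdx1 from 0.3 to 3 nM lay just beyond 1.5-fold. It dropped under that size in 12 of 22 settings, among them every other scaling (-0.57 to -0.52) and the fits without replicate 2 of 0 nM (-0.58), replicate 1 of 0.3 nM (-0.56), replicate 1 of 1 nM (-0.58), replicate 2 of 3 nM (-0.53) or replicate 1 of 100 nM (-0.58). Its adjusted p stayed at or below 0.0270 in all of them.

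A slope over the order of the doses used all 12 libraries. It gave Cdx1 a change of -1.78 from the lowest to the highest dose (standard error 0.15, adjusted p = 1.9e-10) and Gata3 one of -1.20 (standard error 0.41, adjusted p = 0.0375), by edgeR's quasi-likelihood test. Tfap2c had a slope of 0.50 over the series (adjusted p = 0.0367), under 1.5-fold. Tfap2c was called higher along the doses with upper quartile factors (0.61, adjusted p = 0.0118) and with no normalization factors (0.64, adjusted p = 0.00762). It was also called in the setting of the pairwise fits (0.64, adjusted p = 0.0216), where the slope was fitted to 23015 genes in place of 23204. Without replicate 1 of 0.3 nM its value was 0.59, beyond 1.5-fold. In the fit reported here 0 of 9 regulators were called higher and 2 lower, against 7.22% and 4.83% of all genes. With DESeq2's Wald test only Cdx1 was called, where 1181 of 23204 genes were higher and 924 lower. The call of Gata3 was lost in 12 of 22 settings, with adjusted p from 0.0506 to 0.104, among them the fits without replicate 1 of 0 nM, replicate 2 of 0.3 or 3 nM, and any library of 10 or 100 nM.

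The genes whose levels most resembled those of Cdx2 over the 12 libraries were not among the 10. Among the 11377 other genes that averaged 1 RPKM or more, Pearson's r on log2(RPKM + 0.1) was highest for Arl4a (0.971), Sp5 (0.924), Klf10 (0.924), Helz (0.916) and Igf2bp2 (0.913). Arl4a, a small GTPase, went from 7.50 RPKM at 0 nM to 10.8 at 10 nM and 14 at 100 nM, and Sp5, a direct WNT target, from 10.4 to 12.2 and 19.4. Of the trophectoderm regulators, Tfap2c came nearest, with r of 0.643 and 704 genes above it, and Cdx4 had 0.571. Elf5 had 0.302, Eomes 0.167, Tfap2a -0.196, Gata2 -0.284 and Hand1 -0.359. Gata3 (-0.690) and Cdx1 (-0.879) ran against Cdx2, and Cdx1 had 11258 of the 11377 genes above it. Cdx4, Elf5 and Hand1 averaged under 1 RPKM, so they were set against the ranking without being part of it. The libraries share doses and the controls, and they include those at 0 and 100 nM by which Cdx2 was chosen. Cdx2 was highest at 100 nM, so genes high at that dose tend to rank first. The coefficients are thus descriptions without a p, and they do not test whether the regulators rose with Cdx2.

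Genes next to Cdx2 did not rise detectably with it. Of the 9 genes of the table within 200 kb, 0 were called at 100 nM by edgeR's quasi-likelihood test, against 3.37% of all genes higher and 4.62% lower. By DESeq2's Wald test 0 were called too, where 341 of 23204 genes were higher and 676 lower. For 9 genes these counts of 0 lay close to the background. At an unadjusted p under 0.05 in edgeR 1 was higher and 0 were lower, with no share of all genes computed at that threshold. Polr1d and Pan3, the 2 with ample counts, had log2 fold changes of 0.12 (adjusted p = 0.470) and 0.02 (adjusted p = 0.947). Pdx1, the homeobox gene of pancreas that shares the ParaHox cluster with Cdx2 and Gsx1, had 1 and 0 counts in the control and 3 and 5 with 100 nM (adjusted p = 0.340), and Gsx1 had 1 and 0 against 0 and 3. Flt3, a receptor gene, had 2 and 0 counts against 6 and 6 (adjusted p = 0.169). The remaining 4, Urad, Mir7k, 2210019I11Rik and D5Ertd605e, had at most 4 counts in any of these libraries.

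Of 10 genes that act upstream of Cdx2 in the trophectoderm, Tead4 fell and the other 9 were not called, where 4.62% of all genes were lower and 3.37% higher. TEAD4 is the DNA-binding partner through which YAP1 and WWTR1 reach Cdx2. Tead4 had 186 and 246 counts without dTAG13, 207 and 237 with 0.3 nM, 193 and 203 with 1 nM, 159 and 172 with 3 nM, 147 and 129 with 10 nM, and 96 and 81 with 100 nM. From 3 nM on, both libraries lay below both of the control. Its log2 fold change was -0.67 at 10 nM (adjusted p = 6.3e-05) and -1.39 ± 0.15 at 100 nM (SE, adjusted p = 4.2e-18, edgeR's quasi-likelihood test), and at 100 nM it ranged from -1.54 to -1.20 over the settings. Yap1 had a log2 fold change of 0.09 (adjusted p = 0.526) and Klf5 one of -0.19 (adjusted p = 0.0874), while Wwtr1 passed the adjusted test at 0.32 (adjusted p = 0.0343) without reaching 1.5-fold. The median of the 10 genes was -0.04, against 0.09 over all genes.

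Among 22 markers of trophectoderm and trophoblast stem cells, 10 were called lower and 3 higher at 100 nM, against 4.62% and 3.37% of all genes, and the median log2 fold change was -0.64 (0.09 over all genes). Their summed level was 146 to 148 RPKM in the control libraries and 73.2 to 74.9 at 100 nM. The 4 largest changes were falls. Plet1, a surface protein of trophoblast progenitors, had 76 and 96 counts without dTAG13, 36 and 35 with 3 nM, 17 and 13 with 10 nM, and 9 and 5 with 100 nM. It fell by 3.70 on the log2 scale at the highest dose (standard error 0.33, adjusted p = 3.2e-27, edgeR's quasi-likelihood test).

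Ascl2, a helix-loop-helix factor of the placenta, had 11 and 11 counts in the control and 2 and 3 with 100 nM (log2 fold change -2.18, adjusted p = 0.0263). That call was lost in 7 of 21 settings. Among them were DESeq2's Wald test (adjusted p = 0.148) and, in edgeR, the pairwise fit (adjusted p = 0.0705) and no normalization factors (adjusted p = 0.0501). The others were the fits without either 0 nM or either 100 nM library, with values from -2.47 to -1.94. Cldn4, a tight-junction claudin, went from 266 and 251 to 57 and 69 counts (-2.14, adjusted p = 1.1e-38). Krt8, the epithelial keratin of the trophectoderm, went from 89 and 108 to 26 and 23 (-2.10, adjusted p = 1.2e-15). Krt8 and Cldn4 were called lower from 3 nM on.

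The other 6 lower genes were Atp1b1, a subunit of the sodium pump that fills the blastocyst cavity (-2.05), Rhox6 (-1.43), Msx2 (-1.35), Ets2 (-0.74), the water channel Aqp3 (-0.69) and the protease gene Furin (-0.59). The 3 higher genes were Sox21 (1.84), Fgfr2, the FGF receptor of the trophectoderm (1.73), and the cadherin Cdh3 (1.32). Several of them belong to epithelia in general rather than to trophoblast, such as Cldn4, Krt8, Atp1b1, Aqp3 and Cdh3. Over 23 alternatives the number lower ran from 5 to 10 and the number higher from 1 to 3. It was 6 lower without replicate 1 of 0 nM, replicate 1 of 100 nM or replicate 2 of 100 nM, and 1 higher without replicate 2 of 0 nM. Plet1, Cldn4, Krt8, Atp1b1 and Ets2 stayed lower and Cdh3 stayed higher in all 22 settings in which each was refitted. The calls of Msx2 were lost in 13 of 21 settings, of Rhox6 and Furin in 12 of 22, of Fgfr2 in 4 of 21, of Sox21 in 3 of 21 and of Aqp3 in 3 of 22. Sox21 moved to 2.72 without replicate 1 of 0 nM and to 1.28 without its replicate 2 (adjusted p = 0.203). Rhox6 moved to -0.85 without replicate 1 of 0 nM (adjusted p = 0.564), to -0.88 without replicate 2 of 100 nM and to -2.32 without replicate 1 of 100 nM. Plac1 had 0 counts in the libraries at 0 and 100 nM.

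Of 16 markers of differentiated trophoblast, 1 was higher and 0 were lower, where 3.37% and 4.62% of all genes were, so the count lay close to the background. Peg10, an imprinted gene derived from a retrotransposon that the placenta needs, had 2052 and 2214 counts without dTAG13, 3273 and 3366 with 1 nM, 6663 and 6651 with 10 nM, and 9289 and 8926 with 100 nM. It rose at every dose from 1 nM on, with a log2 change of 1.99 ± 0.054 at 100 nM (SE, adjusted p = 2.7e-289, edgeR's quasi-likelihood test). Peg10 alone gave most of the summed level of this list, which went from 73.1 to 74.6 RPKM at 0 nM to 227 to 242 at 100 nM. The lineage-restricted genes stayed near the floor, with at most 3 counts per library at 0 or 100 nM for the placental prolactin genes Prl3d1, Prl3b1 and Prl2c2, for Tpbpa of the spongiotrophoblast and for the syncytin genes Syna and Synb. Only 11 of the 16 had over 3 counts in 1 of the 2 conditions. With the others left out, the list's median went from 0.55 to 0.08, against 0.07 for all genes treated alike.

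Among 18 markers of the primitive streak and the posterior embryo, the other setting of the caudal genes, 4 were higher and 1 lower at 100 nM, against 3.37% and 4.62% of all genes. Evx1, a homeobox gene of the posterior streak, went from 11 and 14 to 69 and 48 counts (log2 fold change 2.11, adjusted p = 2.1e-08), and the ligand gene Wnt8a from 5 and 5 to 21 and 23 (2.01, adjusted p = 0.00226). Wnt8a was no longer called with DESeq2's Wald test (adjusted p = 0.0605). Sp5 rose by 0.89 (adjusted p = 1e-08), and the fourth was Nkx1-2, at 0.64. Without replicate 2 of 100 nM, Nkx1-2 stood at 0.57, under 1.5-fold. Wnt3a, in contrast, fell from 26 and 13 to 2 and 6 counts (-2.36, adjusted p = 0.00048), a call lost without replicate 1 of the control (-1.74, adjusted p = 0.125) or replicate 1 of 100 nM (-1.79, adjusted p = 0.0567), while the value was -3.29 without replicate 2 of 100 nM. T, the streak factor brachyury, had 66 and 57 counts against 93 and 82 (0.40, adjusted p = 0.190). Msgn1, a marker of presomitic mesoderm, had 0 counts in all 4 libraries. The median of the list was 0.54, against 0.09 over all genes.

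Markers of other cell types were measured beside the regulators. At 100 nM, 3.37% of all genes were called higher and 4.62% lower, the shares to set beside the calls of each list here. Shares of all genes at an unadjusted p were not computed. Of 11 embryonic stem cell markers, 0 were higher and Tfcp2l1 was lower (-0.72), and their summed level was 1610 to 1660 RPKM at 0 nM and 1600 to 1630 at 100 nM. At an unadjusted p under 0.05 in edgeR, 3 of the 11 were higher (Nanog, Tdgf1 and Klf4) and 4 lower (Pou5f1, Esrrb, Sall4 and Tfcp2l1). All of these also passed the adjusted test, and only Tfcp2l1 went beyond 1.5-fold. With no minimum of fold, 1172 of all 23204 genes passed it as higher and 2215 as lower. Nanog and Tdgf1 each had a log2 fold change of 0.44, under 1.5-fold. Pou5f1, the gene of OCT4, had 4688 and 5207 counts in the control and 4590 and 4308 with 100 nM (log2 fold change -0.26, adjusted p = 1.6e-05, under 1.5-fold). Of 7 primitive endoderm markers, Pdgfra was higher (3 and 6 to 28 and 20 counts, log2 fold change 2.28, adjusted p = 0.00068) and 0 were lower, with a summed level of 1.86 to 2.31 RPKM at 0 nM and 2.42 to 2.76 at 100 nM. Its defining genes Gata6 and Sox17 had at most 4 and 11 counts in any library. Of 7 fibroblast markers, 0 were called in either direction by edgeR's test or by DESeq2's, 1 was higher at an unadjusted p under 0.05 in edgeR, and their summed level was 2.74 to 3.62 RPKM at 0 nM and 3.31 to 4.11 at 100 nM. Their median log2 fold change was 1.16, from counts of at most 23 in any library. The part of other cell types in the counts of the regulators was not tested.

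**Figure D4:**
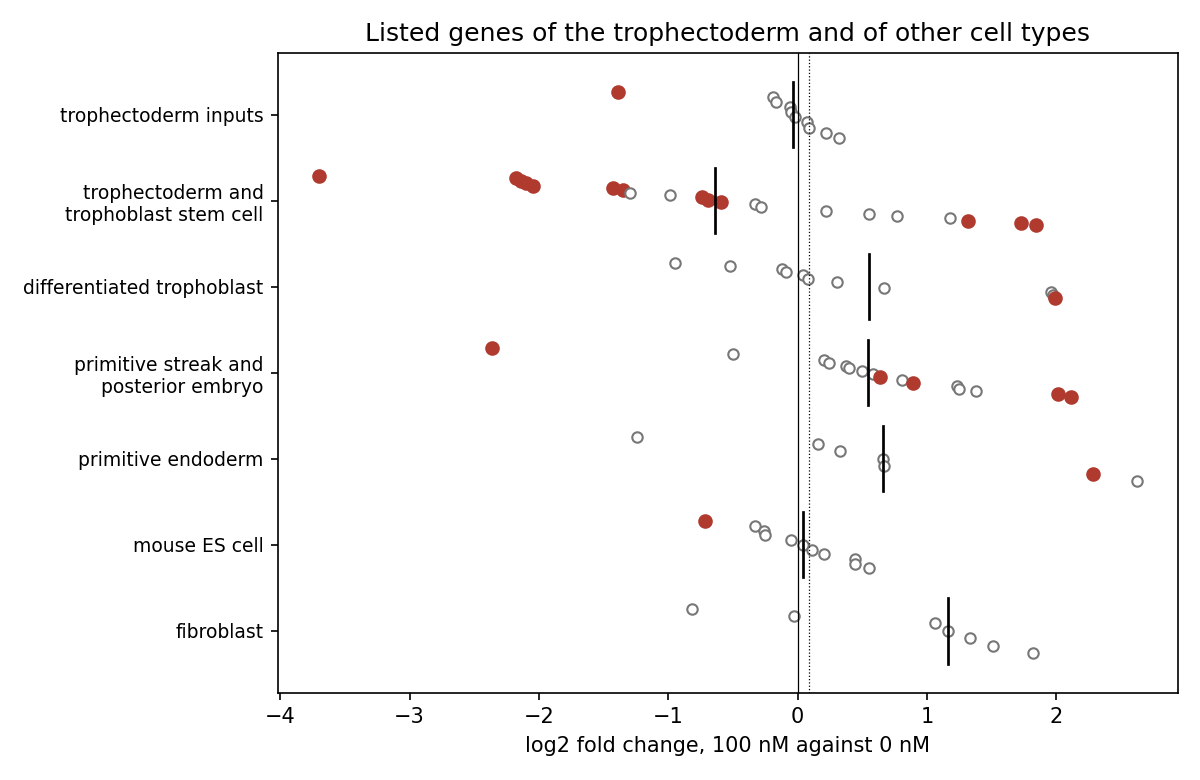
Log2 fold change from 0 to 100 nM dTAG13 (horizontal axis) of the genes of each list, 1 point per gene. Filled points passed an adjusted p of 0.05 with over 1.5-fold, black bars give each list's median, the dotted line gives the median of all genes (0.09), and genes with 3 or fewer counts in both conditions enter the medians but are not drawn. The trophectoderm and trophoblast stem cell list holds 10 filled points to the left and 3 to the right, with its median at -0.64.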

How the data were processed

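The authors deposited counts of read pairs per gene symbol for the 12 libraries, without normalization, and the exon length of each gene in bases. Per the labels and the file headers, reads were trimmed with Trim Galore, aligned to mm10 with HISAT2 and counted on exons with featureCounts 2.0.1. Counting took pairs whose ends both aligned, skipped multi-mapped pairs and ignored the strand.

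From these counts, all 23204 genes with at least 1 count were fitted over the 6 conditions together with edgeR 4.0.16 (R 4.3.3) and TMM factors. The study's RPKM filter and likelihood ratio test were alternatives, because the filter drops 3 of the 10 genes. Conditions were compared by the quasi-likelihood test, and p-values were adjusted over all genes by Benjamini-Hochberg. A call needed an adjusted p under 0.05 and over 1.5-fold. The biological coefficient of variation was 6.28%, with infinite prior degrees of freedom, so 1 spread was shared by all genes. RPKM used TMM library sizes. A sum of 3 counts over the libraries of a condition was the floor. The chi-square of replicate libraries was 1.74 to 10.6 per degree of freedom, beyond sampling noise. Tested on simulated counts of 22883 genes for 100 against 0 nM, the fit called 195 of 200 genes changed 3-fold and 4 others. The changed genes were drawn from those with ample counts, and every gene was simulated with the same spread. This recovery therefore does not carry over to regulators near the floor or to genes that vary more. Promoters came from RefSeq (GRCm38.p6).

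The members, lists and tests were chosen with earlier results of these data known. Of each list, genes called at 100 nM were named, up to 4 by the size of the change. The 5 genes most like Cdx2, those within 200 kb of it, those annotated over a member, and Smarca4 were named too, and other list genes after their values were seen. Alternatives covered the test (also DESeq2 1.42.0), scaling, filters, a replicate block, pairwise fits and each library left out.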

Additional observations from a re-analysis of the deposited data

How the results depend on the processing

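The direction of Cdx1 at 3, 10 and 100 nM, Gata3 at 100 nM, and Eomes and Tfap2c at 10 and 100 nM held in 22 settings each. With another test, scaling, filter or library left out, 41 of 184 counts of regulators called changed by more than 1.5 times. At 3 nM against 0 nM the count of 0 became 1 (Eomes, higher) with DESeq2's Wald test, DESeq2 size factors, upper quartile factors, no normalization factors, the filter at 1 RPKM or filterByExpr, and 2 with no fold-change minimum. With no fold-change minimum it became 1 at 1 nM and 2 at 10 nM, and it was also 2 at 10 nM without normalization factors. At 100 nM the count of 3 became 1 with DESeq2's Wald test or a pairwise fit. From 0.3 to 3 nM the count of 1 became 0 with DESeq2's Wald test, all 3 other scalings, both filters or the pairwise fit, and along the dose order 2 became 1 with DESeq2's Wald test, DESeq2 size factors or the 1 RPKM filter. Leaving out 1 library gave 0 to 2 at 3 nM, 1 to 2 at 10 nM, 1 to 3 at 100 nM, 0 to 1 from 0.3 to 3 nM and 1 to 3 along the dose order. The cause was not tested. Cdx2 at 1 nM turned to -0.00 without replicate 1 of 1 nM and was 1.64 without replicate 1 of 0 nM. Where a library left out leaves 1 in its condition, that one is assumed to vary like the others.

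Over all genes at 100 nM, 782 were higher and 1072 lower, against 341 and 676 with DESeq2's Wald test, 332 and 784 in the pairwise fit, 497 and 777 with the 1 RPKM filter, and 1172 and 2215 with no fold-change minimum. Higher genes were 42.2% of the calls, and 57.0% without normalization factors. Deviations of libraries with the same replicate number correlated between -0.125 and 0.105 over 15 pairs of conditions, so no strong shared replicate effect was seen. The labels do not state whether the replicates were run as pairs. With a replicate block the count of regulators was 3 at 100 nM, 1 at 10 nM, 0 at 3 nM, and 2 along the dose order. Regulators with under 50 counts per library limit what these libraries can show: a change of Cdx4, Elf5 or Hand1 of a few counts was not detectable.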
